A study of Rattus norvegicus with 10 samples.

Results

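Sodium butyrate (NaB) was applied for 24 h to primary cortical neuron cultures of newborn Wistar rats on day 14 in vitro, without washout, and the RNA of 2 treated cultures was compared with that of 2 time-matched control cultures. These 4 libraries are the whole NaB experiment among the 10 libraries of the series, and the comparison covered 15717 of the 32883 genes in the file. The concentration is given as 5 mM in the study's methods and as 5 µM in the sample labels, and which of them was used could not be settled here. The methods place the control and the treated culture of a pair on 1 plate, take the pairs from different biological replicates and name no vehicle for the controls. The study describes the cultures as mixtures of neurons and glia, and each library is a bulk sample. The libraries held 26748731 and 26902233 reads in the controls and 27426771 and 26844994 with NaB. A detection limit of 3 reads was worth 0.109 to 0.112 CPM in them, counting error alone considered. The spread within a group exceeded that of read counting, with a chi-square per degree of freedom of 23.5 between the controls and 16.5 between the NaB libraries.

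Butyrate is a short-chain fatty acid that bacteria of the gut release, and cells oxidize it along the route of ketone bodies. It also inhibits histone deacetylases (HDACs), the enzymes that remove acetyl groups from the lysines of histones and of other proteins. Acetylated histones hold DNA less tightly and are bound by bromodomain proteins, and HDAC inhibition is known to switch on the cell cycle inhibitor p21 and many genes that are silent in a given cell type. HDACs act in corepressor complexes, and the study describes such complexes as repressing proneural genes in non-neuronal cells.

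The values below are normalized counts, the reads of a gene divided by a size factor of its library, in the order of the replicates. The log2 fold changes are those of NaB minus control on log2(normalized count + 1), with their standard errors (SE) and with p-values from limma after Benjamini-Hochberg adjustment over all tested genes. Differentially expressed genes (DEGs) passed an adjusted p of 0.05 with a log2 fold change of 0.5 or more in either direction. The file lists Ensembl identifiers without symbols. The symbols used here come from the readable rows of the study's lists of upregulated genes and cover 1911 identifiers, so a named gene was all but bound to be one that rose, and counts of named genes carry no evidence on the direction of a group. Of the 1911 identifiers, 93 were read in the list for NaB alone, which was drawn from these same 4 libraries, 772 also in the list for another inhibitor, and 1046 in that other list alone. The lists were at hand only in part, so a gene read in 1 of them may stand in both. Genes named outside the largest changes and the gene lists were chosen after their values were seen.

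NaB changed the level of a large part of the transcriptome. Of the tested genes, 6521 were DEGs (41.5%), with 3337 upregulated (21.2%) and 3184 downregulated (20.3%). Both NaB libraries lay beyond both controls in 12432 genes (79.1%), above them in 6321 (40.2%) and below them in 6111 (38.9%). With 2 libraries against 2, an exact two-sided permutation test of a single gene cannot give a p below 0.333, so each call rests on the spread that limma estimates across the genes and all 10 libraries.

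The numbers of risen and fallen genes were close in the main fit, but not under every scaling and filter. With library totals 3923 genes rose and 2576 fell, and with a mean of at least 50 normalized counts required 2382 rose and 2955 fell. The mean required in that filter, here and below, is over all 10 libraries of the series. In the main fit the sizes of the changes were not alike. At a log2 fold change of at least 2, 896 genes had risen and 348 had fallen. At 4 or more the numbers were 161 and 28, and at 5 or more 51 and 8. When the tested genes were ordered by their mean normalized count and split into 5 bins of like size, the share of upregulated genes went from 32.2% in the lowest bin through 27.9%, 18.5% and 15.2% to 12.2% in the highest. The share of downregulated genes was 8.52% in the lowest bin and lay between 21.6% and 24.6% in the others. In the lowest bin, 331 of 3144 genes had at most 3 reads in each control and passed the filter on low counts through other groups, so these genes had no room to fall.

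**Figure D1:**
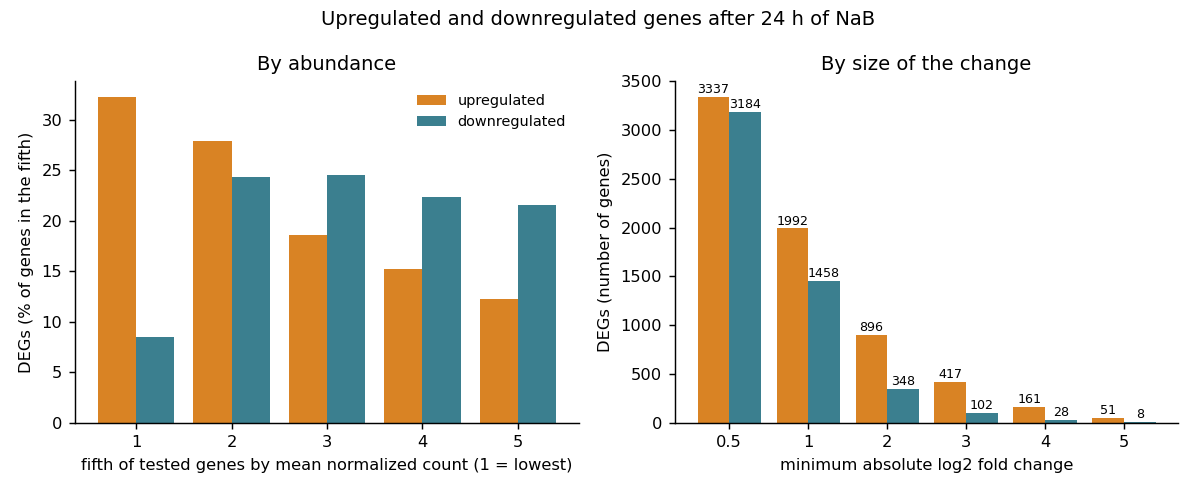
Left, DEGs as a percentage of the genes in each of 5 bins of the 15717 tested genes, ordered by the mean normalized count of the 4 libraries. Right, the number of DEGs at 6 minimum values of the absolute log2 fold change. Upregulated genes make up 32.2% of the lowest bin and 12.2% of the highest, and 51 genes rose against 8 that fell at a log2 fold change of at least 5.

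More genes were detected with NaB. At least 1 read was found in 19163 and 19404 genes in the controls and in 20309 and 20180 with NaB, and at least 10 reads in 14440 and 14438 against 15318 and 15306. A total of 255 genes had at most 3 reads in each control and at least 10 in each NaB library, while 16 genes showed the reverse. In 41 of them no control read was found at all. The bulk libraries cannot tell more RNA per cell from more cells of a type that express a gene.

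At a stricter limit, 11 genes went from at most 3 reads in each control to at least 100 reads in each NaB library. Gpr50, an orphan receptor related to the melatonin receptors, had normalized counts of 3.11 and 2.09 in the controls and 158 and 189.9 with NaB. Comp, a protein of the cartilage matrix, had 2.07 and 2.09 in the controls and 169 and 167 with NaB. Ddx43, a helicase gene known from the germline and from tumors, had 2.07 and 2.09 in the controls and 132 and 112 with NaB. The others included Hoxb13, Nkx2-5, Pitx3, Phldb3, Tcf24, Dlx4 and Dsp. Of these, Hoxb13, Nkx2-5, Pitx3, Tcf24 and Dlx4 are transcription factors. The limits on reads chose these 11 genes, so their separation and their calls are a description and no test.

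Among the genes with a symbol and a mean of at least 100 normalized counts in the higher group, the 8 largest rises included those of Nkx2-5, Dmrt2, Pitx3, C1ql4, Hoxb13, Tcf24 and Dsp, with log2 fold changes from 6.18 to 6.58. Of the 8, 6 had only 1 or 2 reads in the controls, so their ratios are wide. Nkx2-5, a homeobox factor of the heart, had normalized counts of 1.04 and 0 in the controls and 137 and 133 with NaB, a ratio of 260 with a 95% exact counting interval from 46.3 to 10298. For Dsp, which encodes the desmosome protein desmoplakin, the values were 0 and 1.04 in the controls and 109 and 96.4 with NaB (ratio 197, interval 35.1 to 7832). C1ql4, a secreted protein of the C1q family, started from more reads, at 4.14 and 5.22 in the controls, and reached 449 and 459.9 with NaB (log2 fold change 6.33, SE 0.48, adjusted p = 7.32e-06). Dmrt2, a DM domain factor of somite development, had 4.14 and 0 in the controls and 151 and 239 with NaB (log2 fold change 6.40, SE 0.86, adjusted p = 0.000155). These genes were picked for the size of their rise, and with so few reads in the controls they passed the filter on low counts through other libraries, so their values are a description.

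The 200 bases before the start of the gene are shown for the 5 of these 8 genes with a single RefSeq window, and for the metallothionein gene Mt1, as examples of the promoters of genes that rose from near 0 and of an inducible gene that was already on. They are from build GRCr8, read 5′ to 3′ on the strand of the gene: Nkx2-5 (chr10:16848400-16848599, plus strand), Dmrt2 (chr1:232743742-232743941, plus strand), Pitx3 (chr1:254955326-254955525, minus strand), C1ql4 (chr7:132125610-132125809, minus strand), Dsp (chr17:26877122-26877321, minus strand) and Mt1 (chr19:10832976-10833175, minus strand). Capitals mark the letters of the GC box (GGGCGG), the CCAAT box (CCAAT) and the TATA box (TATAAA) on either strand, and in Mt1 also the core of the metal response element, searched as TGCACNC or TGCGCNC.
Nkx2-5: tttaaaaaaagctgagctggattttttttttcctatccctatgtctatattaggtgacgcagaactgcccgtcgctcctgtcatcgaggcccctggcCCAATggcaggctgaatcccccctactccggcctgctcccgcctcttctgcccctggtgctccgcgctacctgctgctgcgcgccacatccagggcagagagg
Dmrt2: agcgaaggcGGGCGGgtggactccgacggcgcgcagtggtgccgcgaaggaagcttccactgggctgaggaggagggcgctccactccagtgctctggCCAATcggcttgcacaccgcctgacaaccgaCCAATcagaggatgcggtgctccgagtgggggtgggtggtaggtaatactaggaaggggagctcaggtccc
Pitx3: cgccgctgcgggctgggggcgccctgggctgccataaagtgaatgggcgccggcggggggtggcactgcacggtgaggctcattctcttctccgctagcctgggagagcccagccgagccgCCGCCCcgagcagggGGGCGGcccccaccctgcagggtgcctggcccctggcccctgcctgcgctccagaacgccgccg
C1ql4: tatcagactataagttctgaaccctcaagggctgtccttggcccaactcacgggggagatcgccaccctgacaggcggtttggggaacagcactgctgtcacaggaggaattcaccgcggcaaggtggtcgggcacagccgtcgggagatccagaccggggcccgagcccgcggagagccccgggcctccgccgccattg
Dsp: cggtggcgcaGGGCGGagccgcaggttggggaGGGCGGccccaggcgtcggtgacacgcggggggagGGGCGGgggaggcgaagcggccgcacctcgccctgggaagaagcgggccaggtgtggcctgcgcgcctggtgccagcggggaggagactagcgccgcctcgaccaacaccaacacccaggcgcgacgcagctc
Mt1: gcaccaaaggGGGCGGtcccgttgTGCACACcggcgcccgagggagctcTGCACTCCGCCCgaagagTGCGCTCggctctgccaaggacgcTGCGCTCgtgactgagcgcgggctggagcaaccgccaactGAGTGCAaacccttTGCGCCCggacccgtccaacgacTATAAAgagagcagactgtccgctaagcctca
The GC box letters stood 3 times in the Dsp sequence, 2 times in those of Pitx3 and Mt1 and 1 time in that of Dmrt2. The CCAAT letters stood 2 times in Dmrt2 and 1 time in Nkx2-5, and the C1ql4 sequence held none of the marked letters. TATAAA was found in Mt1. The metal response core stood 6 times in Mt1, with 1 copy that shares a base with a GC box, and was also present in Nkx2-5, Dmrt2, Pitx3 and Dsp, where it is not marked. Over the same 200 bases of 33469 RefSeq windows, 28.6% held the GC box, 29.2% the CCAAT box, 10.4% the TATA box and 17.4% the metal response core. A comparison of these letters between upregulated genes and all genes was void, since 1256 of the 1604 upregulated genes whose symbol belongs to a single identifier (78.3%) had a window, below the limit of 80%.

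The falls have no symbols here, apart from 1. The deepest was that of ENSRNOG00000025745, at 2918 and 2920.2 in the controls and 1.89 and 0.964 with NaB, the only gene that went from at least 100 reads in each control to at most 3 in each NaB library (log2 fold change -10.26, SE 0.55, adjusted p = 3.26e-06). In normalized counts, without regard to transcript length, the largest loss was that of ENSRNOG00000046005, from 210780.0 and 246448 to 148256 and 145079 (log2 fold change -0.64, SE 0.14, adjusted p = 0.00332). The largest gain, that of ENSRNOG00000047179, went from 18116 and 16972 to 39887 and 40915 (log2 fold change 1.20, SE 0.10, adjusted p = 1.21e-05). LOC680227 was the only gene with a symbol among the downregulated DEGs, at 1795 and 2022 in the controls and 662 and 1079.8 with NaB (log2 fold change -1.17, adjusted p = 0.0241). Its call was lost without control replicate 1 (adjusted p = 0.0656), control replicate 2 (0.103) or NaB replicate 1 (0.183).

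**Figure D2:**
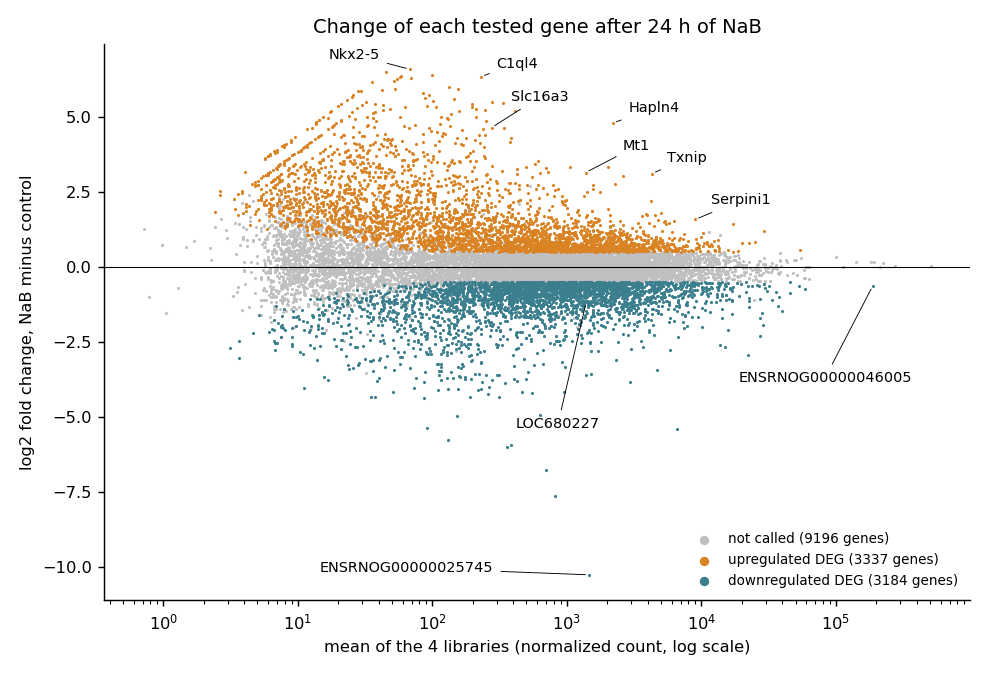
Log2 fold change of NaB minus control against the mean normalized count of the 4 libraries (log scale) for the 15717 tested genes, with upregulated DEGs in orange, downregulated DEGs in blue-green and other genes in gray. The rises reach 6.58 and are largest at low mean counts, and the deepest fall, of ENSRNOG00000025745, is at -10.26.

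Among named genes that were already well expressed, the 6 largest gains in normalized count were those of Serpini1, Txnip, Nomo1, Efr3a, Hspa2 and Itpr1. Serpini1 encodes neuroserpin, an inhibitor of tissue plasminogen activator that neurons secrete, and rose from 5487 and 3692 to 13121 and 13691 (log2 fold change 1.57, SE 0.24, adjusted p = 0.000349). Itpr1, the IP3 receptor that releases calcium from the endoplasmic reticulum, rose from 2955 and 2623 to 7539.5 and 8396 (log2 fold change 1.51, SE 0.11). Efr3a, which anchors a lipid kinase at the plasma membrane, rose from 2194 and 2271 to 7525 and 7851 (log2 fold change 1.78, SE 0.11). Hapln4, a link protein of perineuronal nets, had a larger fold, from 157 and 147 to 4466 and 4009 (log2 fold change 4.79, SE 0.28, adjusted p = 3.26e-06). Grn, the gene of progranulin, rose from 1609 and 1925 to 5581 and 6346 (log2 fold change 1.76, SE 0.12). In each of these genes both NaB libraries lay above both controls.

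The genes that carry butyrate and turn it over are the first group. Of 30 genes on a list for transport, sensing and oxidation of butyrate, 6 had a symbol and 4 could be tested, and all 4 were upregulated. Since symbols came from upregulated genes, the groups that follow are set beside all 1830 tested genes with a symbol, of which 1605 (87.7%) were upregulated with a median log2 fold change of 1.85, against a median of 0.02 over every tested gene. Those read in the NaB list alone were upregulated in 74 of 75 (median 2.42), and those in both lists in 751 of 758 (2.99). Of those read in the other list alone, 780 of 997 (78.2%) were, with a median of 1.31. Shares near 87.7% are no result about a group. A higher share or median may reflect only the list that gave a group its symbols, which was not tested. Where members had under 10 reads in each control, they had little room to fall and passed the filter on low counts through other libraries, and their number is given. Slc16a3, the monocarboxylate transporter MCT4, had 44.5 and 8.35 in the controls and 643 and 405 with NaB. Although the controls differed several-fold, both NaB libraries were far above them (log2 fold change 4.63, SE 0.89, adjusted p = 0.0014). Acss3, a mitochondrial acyl-CoA synthetase for short-chain acids, went from 76.6 and 149 to 310.0 and 389 (log2 fold change 1.69, SE 0.29). Bdh2, a cytosolic hydroxybutyrate dehydrogenase, had 139.8 and 206 in the controls and 286 and 341 with NaB (log2 fold change 0.88, adjusted p = 0.0448). Its call was lost without control replicate 1 (adjusted p = 0.244), without NaB replicate 1 (0.085) and without NaB replicate 2 (0.184). The sodium-coupled butyrate transporter Slc5a8 had too few reads to be tested, at 0 and 2.09 in the controls and 5.67 and 1.93 with NaB.

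Several genes of glucose and fat metabolism were chosen after their values were seen and stand for no group. Txnip, which binds thioredoxin and limits glucose uptake, had 1079.8 and 650.4 in the controls and 10513 and 4919 with NaB (log2 fold change 3.10, SE 0.39, adjusted p = 0.000108). Its relative Arrdc4, another arrestin-fold protein, had 829 and 474 in the controls and 2837 and 1407 with NaB (log2 fold change 1.67, SE 0.34, adjusted p = 0.00188). In both genes the first replicate was the higher one in each group, and the lower NaB library still exceeded the higher control. Ppard, the nuclear receptor PPAR-delta of fatty acid oxidation, went from 837 and 900.0 to 2728 and 2319 (log2 fold change 1.53, SE 0.15, adjusted p = 2.20e-05), while Pparg was at 1.04 and 4.18 against 4.73 and 14.5 and was not called (adjusted p = 0.111, or 0.0386 with consecutive library names as a replicate block). Pdk3, a kinase that holds back pyruvate dehydrogenase, had 1000.1 and 931 in the controls and 2652 and 2456 with NaB. Pygl, the liver form of glycogen phosphorylase, had 73.5 and 50.1 against 499.9 and 443, and Ppp1r3b, which directs a phosphatase to glycogen, 5.18 and 10.4 against 259 and 351. All 3 were upregulated (adjusted p from 1.90e-05 to 0.000318). Ppp1r3b had only 15 reads over both controls, so it had little room to fall. Alpl, tissue-nonspecific alkaline phosphatase, an activity long used to follow the response of cells to butyrate, went from 177 and 241 to 845 and 851 (log2 fold change 2.03, SE 0.25, adjusted p = 8.18e-05). Egln3, Foxo1, Gch1, Ucp2 and Slc13a5, chosen with the values in view, were upregulated as well, with log2 fold changes of 1.71, 1.49, 4.56, 4.62 and 2.66.

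Of the inhibitors of cyclin-dependent kinases, the proteins that stop the cell cycle, 3 of 8 had a symbol and all 3 were upregulated. Cdkn1a, the gene of p21, had 950.4 and 1608 in the controls and 2788 and 2663 with NaB (log2 fold change 1.14, SE 0.22, adjusted p = 0.00152). Cdkn2b, the gene of p15, had 46.6 and 76.2 against 187 and 224 (log2 fold change 1.76, SE 0.34, adjusted p = 0.00142). Cdkn2a, of p16 and p19ARF, went from 8.28 and 13.6 to 57.6 and 89.7 (log2 fold change 2.65, SE 0.67, adjusted p = 0.00724), and its call was lost without NaB replicate 2 (adjusted p = 0.0538). Of the 2 paired genes of cell division and replication, Ccnd2, the cyclin D2 gene, rose from 1833 and 2128 to 4235 and 4875, and Chaf1b, a subunit of the histone chaperone CAF-1, from 109.7 and 121 to 337 and 222. The rest of these lists had no symbol here and was not analysed.

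Of 29 regulators of apoptosis, 5 had a symbol and 4 were upregulated, with a median log2 fold change of 1.11, and 1 of the 5 (Bik) had under 10 reads in each control. Pmaip1, the BH3-only protein Noxa, had 133 and 95 in the controls and 999.9 and 544 with NaB (log2 fold change 2.71, SE 0.30, adjusted p = 5.00e-05). Apaf1, the core of the apoptosome, had 1590.2 and 1602 against 3380.4 and 3505 (log2 fold change 1.11, SE 0.18, adjusted p = 0.000607). Bik, another BH3-only gene, was at 0 and 1.04 in the controls and at 19.8 and 26 with NaB, a ratio of 44.1 with an interval from 7.54 to 1776. Bmf had 195 and 305 against 446 and 580 (log2 fold change 1.06, adjusted p = 0.0155). Its log2 fold change was 0.74 without control replicate 1 and 0.87 without NaB replicate 2, and its call was lost in both fits. The p53 relative Tp73 was not called, at 40.4 and 33.4 against 49.1 and 43.4 (adjusted p = 0.294). Whether cells died in the treated wells was not measured by these libraries.

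Of 27 genes of stress and the unfolded protein response, 5 had a symbol and 4 were upregulated, with a median log2 fold change of 3.02. Mt1, the metallothionein that buffers zinc and copper and whose promoter is shown above, had 267 and 291 in the controls and 2237 and 2700.4 with NaB (log2 fold change 3.13, SE 0.63, adjusted p = 0.00186). The zinc exporter Slc30a2 went from 11.4 and 7.31 to 269 and 254 (log2 fold change 4.69, SE 0.35, adjusted p = 6.25e-06), and the zinc importer Slc39a8 from 8.28 and 13.6 to 78.4 and 68.5 (log2 fold change 2.67, adjusted p = 0.000685). Both zinc transporters are outside the list and were chosen after their values were seen. With few reads in the controls, they had little room to fall. Hspa1a, the inducible HSP70, had 10.4 in each control and 135 and 133 with NaB (log2 fold change 3.57, SE 0.42, adjusted p = 7.18e-05). Hspb1, the small heat shock protein HSP27, had 24.8 and 44.9 in the controls and 259.9 and 299.8 with NaB (log2 fold change 3.02, SE 0.70). The antioxidant gene Srxn1 was not called, at 459.7 and 684 in the controls and 785 and 1552 with NaB (adjusted p = 0.0978), and was called without NaB replicate 1 (adjusted p = 0.0495) and with consecutive library names as a replicate block (adjusted p = 0.000504). For Atf3, at 30.0 and 73.1 against 96.4 and 275, the log2 fold change of 1.77 passed (adjusted p = 0.0191), and it did not in a fit of the 4 libraries alone (adjusted p = 0.0573), without control replicate 1 (adjusted p = 0.153) or without NaB replicate 2 (adjusted p = 0.183).

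**Figure D3:**
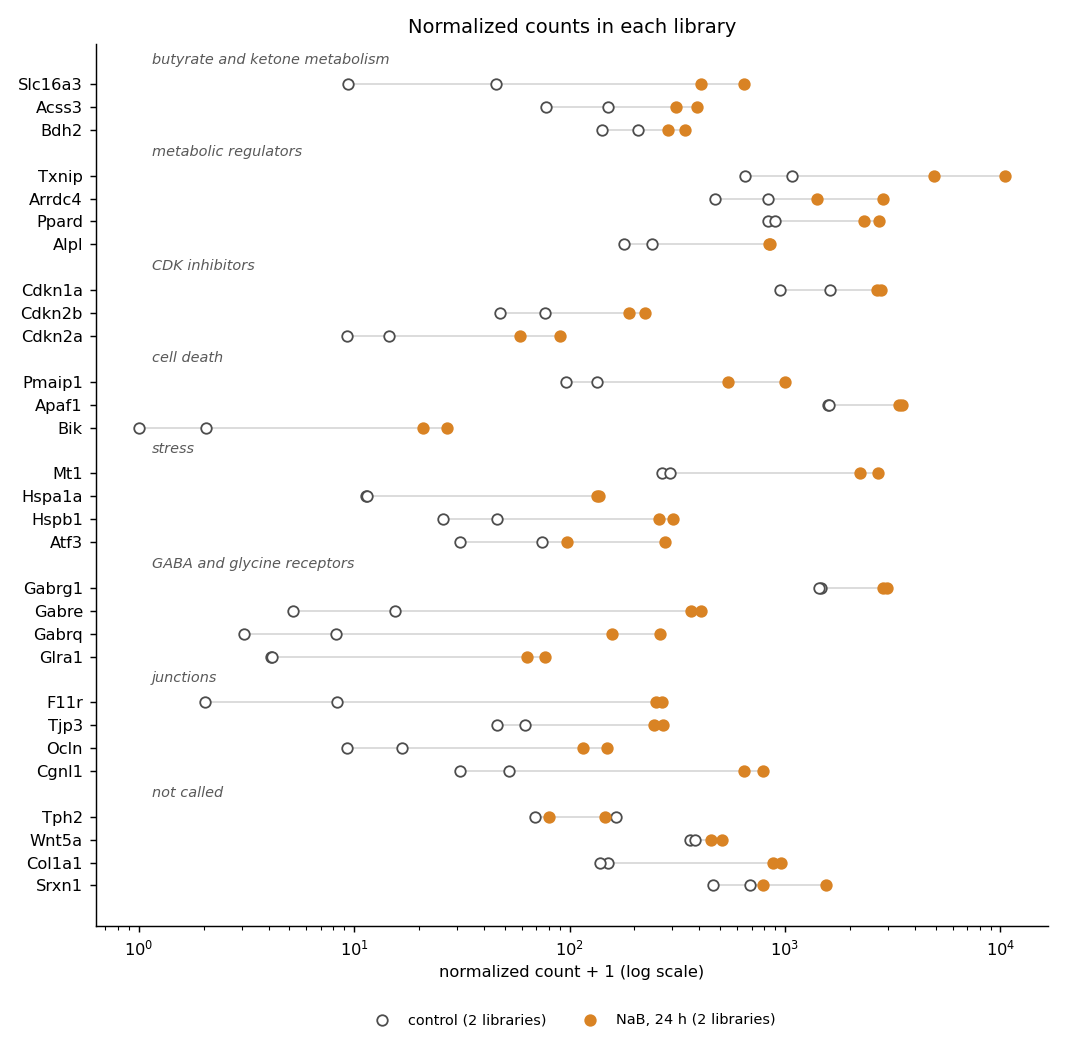
Normalized count plus 1 (log scale) in each of the 2 control libraries (open circles) and the 2 NaB libraries (orange) for genes of 7 groups and 4 genes that were not called. Both NaB libraries lie to the right of both controls in the called genes, and also in Wnt5a, Col1a1 and Srxn1, which were not called. Those of Tph2, at 79.4 and 145, lie between its controls.

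Of 21 immediate early and activity genes, which neurons switch on within a short time of firing, 5 had a symbol and 4 were upregulated. Egr2, a zinc finger factor, had 118 and 106 in the controls and 1402 and 564 with NaB (log2 fold change 2.98, SE 0.41, adjusted p = 0.000178). Junb had 665 and 559.6 in the controls and 3569 and 1363 with NaB (log2 fold change 1.85, SE 0.36, adjusted p = 0.00142). Fosb had 36.2 and 26.1 against 209 and 132, and Nptx2, a secreted pentraxin that gathers AMPA receptors, 839 and 843 against 3500.4 and 2862. Fosl2 was not called, at 47.6 and 33.4 against 63.3 and 37.6 (adjusted p = 0.431). In 11771 genes with a mean of at least 100 normalized counts, the NaB libraries differed by 2-fold or more in 78 (0.663%) and the controls in 167 (1.42%), so the replicates of Egr2 and Junb stood apart from most genes, at 2.49 and 2.62 times. Cyp1b1, a cytochrome P450 that the aryl hydrocarbon receptor controls, differed by 2.63 times, at 408 and 263 in the controls and 5369.7 and 2039 with NaB. In the other direction, the second NaB library was higher by 3.32 times for RT1-Db1, a class II gene of the major histocompatibility complex, and by 2.85 times for Atf3. The receptor gene Ahr had 168 and 151 in the controls and 602 and 530.2 with NaB (log2 fold change 1.82, SE 0.13, adjusted p = 6.25e-06).

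Of 21 GABA and glycine receptor subunits, 5 had a symbol and all 5 were upregulated, but Gabrq, Glra1 and Glra3 had under 10 reads in each control, so the count supports no group change. The GABA-A subunit gene Gabre had 14.5 and 4.18 in the controls and 366 and 405 with NaB (log2 fold change 5.43, SE 0.45, adjusted p = 1.02e-05). Another GABA-A subunit gene, Gabrq, had 7.25 and 2.09 against 263 and 156 (log2 fold change 5.33, SE 0.52, adjusted p = 2.52e-05). Glra1, the adult glycine receptor subunit of spinal cord and brainstem, went from 3.11 and 3.13 to 62.4 and 76.2 (log2 fold change 4.09, SE 0.38). Gabrg1 was well expressed in the controls, at 1465 and 1439.8, and reached 2859 and 2982 (log2 fold change 1.01, SE 0.13, adjusted p = 0.000111). Glra3, at 0 and 4.18 against 17.0 and 25.1 (adjusted p = 0.00633), lost its call without control replicate 1 (adjusted p = 0.0548). Of other neuronal genes, the nicotinic subunit Chrna5 went from 85.9 and 91.9 to 962 and 855, the metabotropic glutamate receptor Grm8 from 120.1 and 80.4 to 529 and 512, and the synaptic organizer Cbln1 from 143 and 65.8 to 1149 and 1093, with log2 fold changes of 3.34, 2.39 and 3.52. The vesicle GTPase Rab3c had 1439 and 1143 against 3539 and 3796, and the secretogranin Scg2 1857 and 2339 against 6213 and 7654. Sypl2, a synaptophysin relative known from muscle, rose from 32.1 and 24.0 to 442 and 463 (log2 fold change 3.98). Grm8 was the only 1 with a symbol of 35 glutamate receptor and postsynaptic genes, and Rab3c and Sypl2 were the only 2 of 31 genes of synaptic vesicles and release. Chrna5, Cbln1 and Scg2 were chosen after their values were seen. These genes therefore give no direction for neuronal or synaptic genes as a group.

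On the list of neuromodulatory and serotonin genes, 13 of 21 had a symbol and 12 were upregulated, but 6 of the 13 had under 10 reads in each control, so the count supports no group change. With a mean of at least 50 normalized counts required, 6 were called. The exception was Tph2, the neuronal tryptophan hydroxylase that makes serotonin in the brain, at 68.3 and 164 in the controls and 79.4 and 145 with NaB (log2 fold change 0.02, SE 0.47, adjusted p = 0.978). Tph1, the form known from the gut and the pineal gland, had 4.14 and 7.31 against 79.4 and 90.6 (log2 fold change 3.71, SE 0.51, adjusted p = 0.00018). The vesicular monoamine transporter Slc18a1 went from 21.7 and 14.6 to 112 and 84.8, and the serotonin transporter Slc6a4 from 7.25 and 3.13 to 30.2 and 28.9. Gch1, which makes the cofactor of the hydroxylases, went from 13.5 and 11.5 to 320.4 and 313 (adjusted p = 2.71e-06). Lmx1b had no read in the controls and 45.4 and 71.3 normalized counts with NaB, at least 18.7-fold higher than a floor of 3 reads per library. Aldh1a1, the most abundant member, went from 126 and 158 to 390 and 809 (log2 fold change 1.99, adjusted p = 0.0136). Its log2 fold change was 1.83 without control replicate 1 and 1.46 without NaB replicate 2, and its call was lost in both fits.

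Of 26 epithelial and keratin genes, many of them parts of cell junctions, 13 had a symbol and 12 were upregulated, but 9 of the 13 had under 10 reads in each control, so the count supports no group change. With a mean of at least 50 normalized counts required, 2 were called. The sum of the 13 went from 118 and 114 normalized counts to 847 and 856. Tjp3, which encodes the tight junction scaffold ZO-3, had the highest counts among them, at 61.1 and 44.9 in the controls and 246 and 271 with NaB (log2 fold change 2.28, SE 0.21, adjusted p = 1.82e-05). The claudin gene Cldn3 had 3.11 and 3.13 against 68.0 and 76.2 (log2 fold change 4.15, SE 0.52), and Epcam 4.14 and 5.22 against 68.0 and 39.5 (log2 fold change 3.23, SE 0.41). Grhl2, a factor that drives epithelial genes, was not called at 13.5 and 6.26 against 32.1 and 22.2 (adjusted p = 0.0541). It passed in 7 of 15 alternatives, among them both edgeR fits, the 4 libraries alone (0.0447), the replicate block (0.0113) and the fit without control replicate 1 (0.0426). Its relative Grhl3 was called, at 4.14 and 3.13 against 59.5 and 55.0 (adjusted p = 4.39e-05). Beyond the list, the junction protein genes F11r and Cgnl1 went from 1.04 and 7.31 to 251 and 268 and from 30.0 and 51.2 to 642 and 791. F11r had under 10 reads in each control and passed the filter on low counts through other libraries. With NaB, all of the 12 but Ocln and Tjp3 stayed under 100 normalized counts in both libraries.

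Markers of other cell types that such a culture can hold were few among the named genes. Microglial markers were represented by 3 of 20, Cd74, Irf8 and Tmem119, whose sum went from 18.6 and 18.8 to 139.9 and 101, with Cd74 the highest at 15.5 and 7.31 against 77.5 and 47.2 (adjusted p = 0.000845). All 3 were called, of which Irf8 and Tmem119 had under 10 reads in each control, but without control replicate 1 Irf8 (adjusted p = 0.242) and Tmem119 (adjusted p = 0.0502) were not, and Irf8 also lost its call without NaB replicate 1 (0.146) or NaB replicate 2 (0.128) and Tmem119 without NaB replicate 1 (0.0514). Endothelial markers were represented by 3 of 12, Flt1, Kdr and Vwf, with a sum of 37.3 and 63.7 against 204 and 235. Vwf, the highest of them in the mean of the 4 libraries, was at 14.5 and 23.0 against 61.4 and 85.8, and Flt1 went from 5.18 and 3.13 to 74.7 and 89.7 (log2 fold change 4.04, adjusted p = 3.25e-05). Flt1 was the 1 of these with under 10 reads in each control. The call of Kdr was lost without control replicate 1 (adjusted p = 0.166), NaB replicate 1 (0.0926) or NaB replicate 2 (0.0579). For mural cells and fibroblasts, Rgs5 went from 5.18 and 12.5 to 58.6 and 50.1, and Col1a1, at 149 and 137 against 876 and 961, was not called (log2 fold change 2.68, SE 1.16, adjusted p = 0.0735). Col1a1 was called by DESeq2 (adjusted p = 0.0362), in a limma fit of the 4 libraries alone (adjusted p = 0.000489) and with consecutive library names as a replicate block (adjusted p = 0.0117). The part of these cells in the results was not tested. None of the 17 pan-neuronal, 17 glutamatergic, 20 astrocyte, 15 oligodendrocyte precursor and 20 myelin markers had a symbol here, so the label of the cultures was not checked against its defining markers.

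Of 13 tested collagen genes with a symbol, 10 were upregulated, and of 11 integrin subunits all 11, with median log2 fold changes of 1.97 and 2.59. Of these, 2 collagens and 3 integrins had under 10 reads in each control. Col8a2, a collagen of basement membranes of the cornea and vessels, had 9.32 and 20.9 in the controls and 592 and 727 with NaB (log2 fold change 5.45, SE 0.31, adjusted p = 3.26e-06). The abundant Col5a1 went from 314 and 229 to 918 and 845, and Col5a3 from 319.9 and 509.5 to 1531 and 1641. Lox and Loxl1, enzymes that crosslink collagen and elastin, went from 13.5 and 18.8 to 480.1 and 492 and from 237 and 283 to 1283 and 1379. Itga5, the fibronectin receptor subunit, had 16.6 and 37.6 against 316 and 342 (log2 fold change 3.66, SE 0.40, adjusted p = 4.64e-05), and Itga7, a laminin receptor subunit, 212 and 242 against 583 and 835. With a library left out, 7 or 8 collagens and 9 to 11 integrins were called.

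Of 18 tested genes of the rat major histocompatibility complex (RT1), 14 were upregulated, with a median log2 fold change of 1.67, and 12 with any of the libraries left out, while 6 of the 18 had under 10 reads in each control. The class I gene RT1-A1 had 117 and 156 in the controls and 451 and 489.8 with NaB (log2 fold change 1.79, SE 0.22, adjusted p = 9.34e-05). The class II chain RT1-Bb had 0 and 4.18 against 56.7 and 84.8 (log2 fold change 4.95, adjusted p = 0.000561). With consecutive library names as a replicate block, RT1-CE15 (adjusted p = 0.00774), RT1-M6-2 (0.00571) and RT1-T24-4 (0.0155) were called as well. RT1 genes are near copies of each other, so reads can be split between them in counting, and their single values are uncertain to that extent. Icam1, an adhesion molecule for leukocytes, went from 60.0 and 84.6 to 467 and 584 (log2 fold change 2.86, SE 0.42, adjusted p = 0.000282). Among interleukins and their receptors 12 of 13 were called, but 7 to 10 with a library left out, and 4 had under 10 reads in each control. Il4r went from 99.4 and 132 to 422 and 511, and Il17ra from 238 and 306 to 895 and 938.

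Of 12 tested Wnt ligands, 8 were upregulated, with a median log2 fold change of 1.67, and 3 had under 10 reads in each control. With a mean of at least 50 normalized counts required, 2 of the Wnt ligands were called. Wnt16, a ligand known from bone and skin, had 9.32 and 13.6 in the controls and 529 and 563 with NaB. Its log2 fold change was the largest among them (5.48, SE 0.25, adjusted p = 1.43e-06). Wnt6, with 3 reads over both controls, was close to it in the ratio of mean normalized counts, at 47.4 against 47.7. Wnt5a, already expressed in the controls at 362 and 379, was at 508 and 451 with NaB and was not called (adjusted p = 0.338). Of 44 tested solute carriers with a symbol, 41 were upregulated, with a median log2 fold change of 2.19, and 34 to 38 with a library left out, while 12 had under 10 reads in each control. The glutamine transporter Slc1a5 went from 52.8 and 117 to 644 and 901 (log2 fold change 3.26, SE 0.39), and the glucose transporter Slc2a4, known as GLUT4, from 18.6 and 30.3 to 205 and 255 (log2 fold change 3.21, SE 0.43). Slc17a4 and Slc51a were near the detection limit in all 4 libraries and were not called, at log2 fold changes of -0.10 each.

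Many transcription factors of other lineages were close to the detection limit in the controls. Of 12 Hox genes with a symbol, which set position along the body axis, 9 passed the filter on low counts and 3 did not. The 9 had at most 4 reads over both controls and passed through other libraries with no room to fall, and their calls are no support for a group change. The same holds for many of the 6 Nkx, 8 T-box and 9 LIM homeobox genes, of which several had no control read. The LIM genes Lhx9, at 12.4 and 3.13 in the controls and 18.0 and 17.4 with NaB, and Lmx1a, at 2.07 and 12.5 against 15.1 and 15.4, were not called. Lmx1a was called without control replicate 2, at a log2 fold change of 2.41 (adjusted p = 0.0199) against 1.34. Isl2, a LIM factor of motor neurons, had 16.6 and 16.7 in the controls and 223 and 175 with NaB (log2 fold change 3.50, SE 0.43, adjusted p = 8.90e-05). Pou4f1, a POU factor of sensory neurons, had 5.18 and 7.31 against 201 and 249.7, and Ebf3 10.4 and 13.6 against 399 and 416. The vitamin D receptor gene Vdr went from 1.04 and 5.22 to 182 and 191 (log2 fold change 5.72, SE 0.58, adjusted p = 2.98e-05). Vdr and Pou4f1 had under 10 reads in each control and passed the filter on low counts through other libraries. They were also chosen after their values were seen, so these values are a description. The counting of reads by strand is not given in the sources used here, so neighbors in a Hox cluster and antisense transcripts cannot be told apart.

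**Figure D4:**
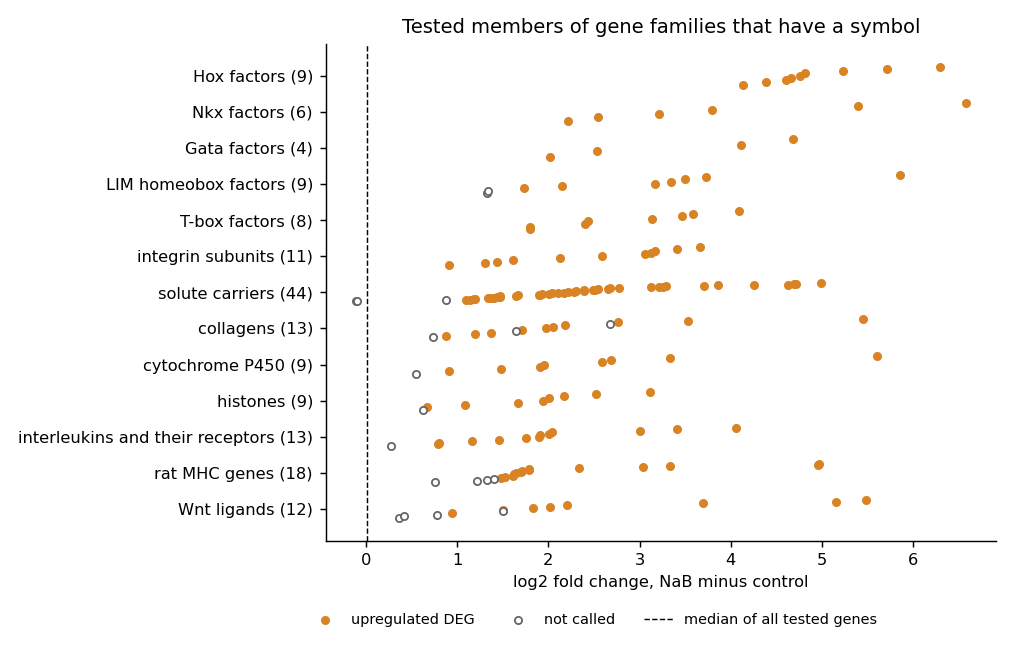
Log2 fold change of NaB minus control for the tested members with a symbol in 13 gene families, ordered by the median of the family, with upregulated DEGs filled, other genes open and the median of all 15717 tested genes as a dashed line at 0.02. Points are offset vertically to keep them apart. Most members lie to the right of the line, in a set of symbols that came from lists of upregulated genes. All 9 Hox and 4 Gata genes shown, 7 of 8 T-box, 5 of 6 Nkx and 4 of 9 LIM genes had under 10 reads in each control. Such genes passed the filter on low counts through other libraries. With a floor of 3 reads in place of controls without a read, the LIM median was 2.15 in place of 3.17 and the Hox median 4.13 in place of 4.76.

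Genes of chromatin itself were paired in small numbers. The Polycomb subunit genes Cbx7 and Pcgf5 went from 241 and 145 to 954 and 791 (log2 fold change 2.21, SE 0.21, adjusted p = 2.09e-05) and from 93.2 and 104 to 179 and 217 (log2 fold change 0.99, SE 0.21, adjusted p = 0.00239). Epop, a partner of the Polycomb complex PRC2, had 727 and 497 against 1797 and 1638, and Hmg20b, a subunit of the CoREST complex, 219 and 336 against 689.9 and 702. Atf7ip, which works with the methyltransferase SETDB1 in silencing, went from 3677 and 3749 to 8080.1 and 8556 (log2 fold change 1.16, SE 0.08, adjusted p = 5.19e-06). Of 9 tested histone genes with a symbol, 8 were upregulated, with a median log2 fold change of 1.94, and 1 had under 10 reads in each control. Among them H1f5, a linker histone, went from 18.6 and 15.7 to 144 and 169 (log2 fold change 3.11, SE 0.41, adjusted p = 0.000137). Their transcripts mostly lack a poly(A) tail and the libraries were made from poly(A) RNA, so these counts cover only the tailed part. Hist2h2be was called at a log2 fold change of 0.67 (adjusted p = 0.0479). Its call was lost with DESeq2 (adjusted p = 0.153), edgeR on TMM factors (0.0518), the 4 libraries alone (0.0828) and the replicate block (0.0504). No member of the lists of histone deacetylases, acetyltransferases and corepressor complexes had a symbol, and these lists were not analysed here. Of genes known from the germline, Tex15 went from 444 and 399 to 2498 and 2253 and Rbm46 from 94.2 and 74.1 to 409 and 470.5, beside Ddx43 above.

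Over all 1830 tested genes with a symbol, 224 were not called with NaB.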

How the data were processed

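RNA of the cultures was sequenced as paired-end poly(A) libraries on a DNBseq-G400 instrument. According to the submitters' processing notes and the methods, the authors used STAR 2.7.9a and featureCounts 2.0.1 on build Rnor_6.0 and DESeq2 1.29. The authors deposited 1 table of normalized counts, a signal made by dividing the reads of each gene by a size factor of the library, from which whole reads were recovered (100% whole within 0.01). The strand setting is not given in the sources used here. The libraries of the series held 26070908 to 27649249 reads.

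Genes passing filterByExpr of edgeR 4.0.16 (minimum count 10) were tested with limma 3.58.1 (R 4.3.3, trend) on the log2 of the normalized count plus 1, in 1 fit of the 10 libraries in 4 groups, with Benjamini-Hochberg adjustment. This scale understates the change of low genes. Adjusted p-values throughout are those of limma unless another tool is named. Tests of edgeR and DESeq2 1.42.0 on the recovered reads, other scalings, filters, pseudocounts and thresholds, a replicate block and leaving out each library were alternatives. The scripts were tested on simulated data. The rule for named genes took the 8 largest rises and the 8 largest falls with a symbol, the 6 largest gains and losses, genes that crossed from at most 3 to at least 100 reads, and list members. Only 1 fall had a symbol, and of genes without one only the largest fall, loss and gain are named. The members and lists were chosen with earlier results of these data known. Symbols came from the study's supplementary list of upregulated genes, of which no value was used, and promoters from RefSeq (GRCr8), matched by symbol. Some genes that these rules select are not reported here.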

Additional observations from a re-analysis of the deposited data

How the results depend on the processing

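The limma fit gave 6521 DEGs, against 6345 with DESeq2, 6546 with edgeR on TMM factors, 6547 with edgeR on the deposited factors, 6369 with the 4 libraries alone, 5337 with a mean of at least 50 normalized counts required, and 5676 to 5931 with each library left out in turn (2800 to 3074 upregulated and 2857 to 2957 downregulated). A minimum log2 fold change of 1 left 3450, with 1992 upregulated and 1458 downregulated. The percent of DEGs upregulated with NaB, 51.2% in the limma fit, was 57.7% at that minimum, 49.9% with TMM, 60.4% with library totals, 53.1% with no filter on low counts, 44.6% with the mean of 50 and 49.3% to 51.8% with a library left out. Library totals moved the median of all genes from 0.02 to 0.126, and fold changes on that scale carry about this shift. Of the list members, 67 were upregulated, 41 with the mean of 50, where fewer were tested, and 57 to 65 with a library left out. That filter also left 1 called Hox gene, 1 Nkx gene, 3 LIM genes, 2 Wnt ligands and 2 epithelial genes. It left 5 interleukin and receptor genes, 5 histones, 7 integrins, 9 RT1 genes and 23 solute carriers called. The titles of the controls and the NaB libraries share no replicate numbers. With consecutive library names as a replicate block, 6950 DEGs were called (3563 upregulated and 3387 downregulated), and the deviations of the assumed pairs correlated at r = 0.342, of which only the sign bears with 2 pairs. Over 289 named genes, 4285 of 4497 values under the alternatives kept their side of the threshold, 175 lost the call and 37 gained it. Col1a1, not called in the main limma fit, was called by DESeq2 and edgeR, and by limma with the 4 libraries alone or with the replicate block. The cause was not tested for changes other than those in the number of genes tested. Genes at or under 3 reads in the controls have ratios with wide counting intervals.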
